A study of Oryza sativa Japonica Group with 6 samples.

Results

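The transcripts described here were switched on from near zero when rice seedlings dried out. They were chosen by their measured level, which had to be under 0.5 RPKM in both control libraries and at least 5 RPKM in both dehydration libraries, where RPKM is the number of reads scaled to the length of the transcript and the size of the library. Of the 66153 transcript models in the table, 182 met this rule (0.275%), and they belong to 172 of 55801 loci. Levels in control and dehydration are therefore a description, and only the rehydration libraries had no part in the choice.

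The study followed gene expression in the shoots of wild-type Nipponbare, a japonica cultivar of rice (Oryza sativa), as seedlings lost water and were watered again. Control shoots came from well-watered plants at 10 days of age. Dehydration shoots, also at 10 days and sampled together with the control, came after 8 h of drying in air, and rehydration shoots came at 11 days, after the same 8 h of drying and 24 h with water. All seedlings were kept at a constant temperature in continuous light, and each condition has 2 libraries, each from a pool of 20 plants. The rehydrated plants were 1 day older than the others, so age and re-watering cannot be told apart. In whole shoots, a change in the number of cells of a type and a change in RNA per cell cannot be told apart either.

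A drying plant cell loses turgor and makes abscisic acid (ABA), the hormone that closes stomata and switches on many stress genes. Among the best known of these genes are those for late embryogenesis abundant (LEA) proteins, small hydrophilic proteins that accumulate in maturing seeds as they dry and also in leaves and roots short of water. The first committed step of ABA synthesis is made by 9-cis-epoxycarotenoid dioxygenase (NCED), and protein phosphatases of type 2C are negative regulators of ABA signaling.

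The libraries had relative depths of 0.862 to 1.0, taken from the step that 1 read makes in low values. The green tissue markers chlorophyll A-B binding protein (LOC_Os11g13890), protochlorophyllide oxidoreductase (LOC_Os10g35370) and Rubisco small subunit (LOC_Os12g17600) had means of 3.77% to 6.13% of the control mean in dehydration and of 79.6% to 98% in rehydration, and their part in the results below was not tested. The 3 glutelin genes, markers of seed endosperm, were near zero throughout, with summed levels of 2.59 to 2.84 RPKM in control, 2.28 to 2.52 in dehydration and 1.64 to 2.28 in rehydration libraries. A rescaling by median ratios shifted log2 RPKM differences between dehydration and control by 0.36. The shift was -0.36 for rehydration minus dehydration and 0.00 for rehydration minus control. On the log2(RPKM + 1) scale used below, values near 0 shift less. These shifts bear on each level below.

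Before drying, the members were close to or below what the sequencing could register. The RPKM was 0 in both control libraries for 65 members, 0 in 1 of them for 63, and above 0 in both for 54. Because RPKM moves in steps of 1 read, each member's values could be turned into the smallest whole numbers of reads that fit all 6 libraries. On that scale both control libraries together held a median of 1.0 read, at most 3 reads for 142 of the 182 members and at most 15 for any of them. The lower of the dehydration libraries held a median of 85 reads and never fewer than 7. These read numbers are the smallest possible, so the true counts may be higher, and no fold change is given for members at 0.

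The level in drying ranged widely. In dehydration replicate 1 the members ran from 5.03 to 394 RPKM with a median of 14.4, and in replicate 2 from 5.01 to 350 RPKM with a median of 12. The members together made up 0.00351% and 0.00413% of the summed RPKM in the control libraries, 0.99% and 0.79% in dehydration and 0.233% and 0.206% in rehydration. The limits of the rule fall within a continuous range of levels. Just inside the control limit, the NAC transcript LOC_Os01g01430_1 had 0.342 and 0.497 RPKM in control. Just outside it, LOC_Os02g09790_1 had 0.423 and 0.506 RPKM. At the dehydration limit the nucleoporin transcript LOC_Os03g55660_1 was inside with 13 and 5.01 RPKM, and LOC_Os12g15530_1 was outside with 8.23 and 4.93 RPKM.

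**Figure D1:**
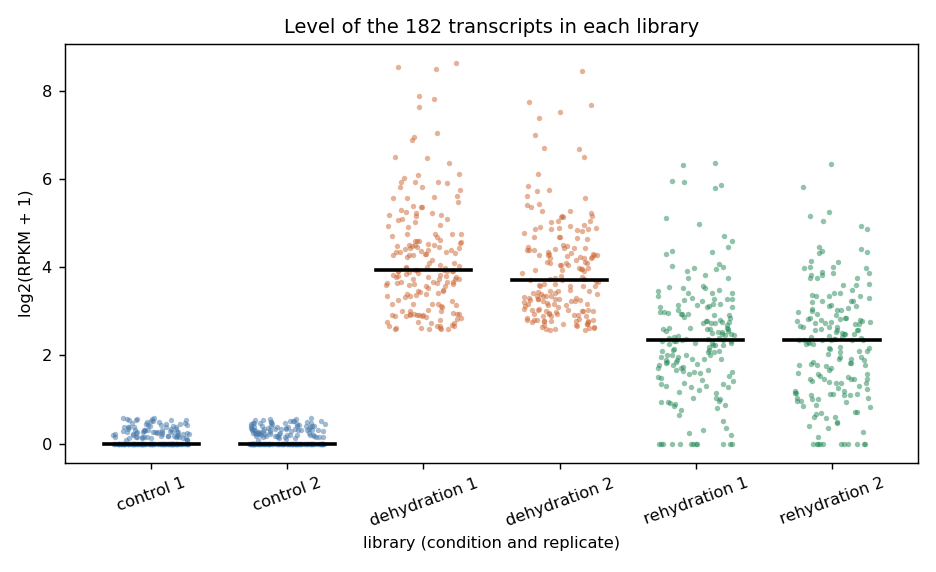
Level of each of the 182 members in each library as log2(RPKM + 1), with 1 point per transcript and a black bar at the median. Control values lie under 0.5 RPKM and dehydration values at 5 RPKM or more because the rule asked for it, while the rehydration libraries, which the rule did not use, have medians of 4.08 and 4.07 RPKM and reach from 0 to above 80 RPKM.

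After 24 h of re-watering most members stood between their control and dehydration levels. In rehydration replicate 1 the median was 4.08 RPKM (range 0 to 80.6) and in replicate 2 it was 4.07 RPKM (range 0 to 80.4). There were 56 members still at 5 RPKM or more in both rehydration libraries, 100 that were at 0.5 RPKM or more in both without reaching 5 in both, and 18 under 0.5 RPKM in 1 library only. The other 8 members were under the control limit of 0.5 RPKM in both rehydration libraries, and 4 of these were listed at 0 in both. Leaving out a library moved these counts. Without control replicate 2, 335 transcripts met the rule and 132 of them were at 5 RPKM or more in both rehydration libraries. Without dehydration replicate 2, 283 met it and 18 were under 0.5 RPKM in both rehydration libraries, and without dehydration replicate 1 the latter count was 16. With 1 rehydration library alone, 17 of the 182 members were under 0.5 RPKM.

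Expressed as a share of the dehydration level, the mean rehydration level had a median of 24.5% over the members (interquartile range 13.6% to 42.9%). With each rehydration library taken alone this median was 27.7% and 21.5%. Less than 10% was left for 31 members, 10% to 25% for 63, 25% to 50% for 53, 50% to 75% for 27 and 75% or more for 8. Only 1 member, WRKY42, had a rehydration mean at or above its dehydration mean. Of the increase over control, members kept a median of 24.3% (interquartile range 13.1% to 42.8%), beside 34.4% (22.1% to 48.5%) for the 2227 other transcripts called higher in dehydration. These 2 sets also differ in level, with median dehydration means of 13.6 and 39.9 RPKM, and the difference between their shares was not tested.

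The same values were read through a limma fit over all 26790 transcripts with at least 1 RPKM in at least 2 libraries, in which every member was tested. A transcript was called at a Benjamini-Hochberg adjusted p under 0.01 with a fold over 2 on the log2(RPKM + 1) scale. In dehydration against control 176 of 182 members were called higher (background 8.97% of all tested transcripts), which the rule makes nearly certain and from which nothing is read. In rehydration against control 39 members (21.4%) were called higher, beside 0.776% of all tested transcripts. The number called lower was 0 (background 0.0709%), but no other count was possible. A control level under 0.5 RPKM leaves no room below it for a fold over 2 on the log2(RPKM + 1) scale. All 39 were also called higher in dehydration (background 0.754% called in both), which the rule again makes nearly certain. In rehydration against dehydration 48 members (26.4%) were called lower, beside 1.01%, and 0 were called higher, beside 4.32%. At an unadjusted p under 0.05 in limma, with no limit on the fold, 0 members were lower in rehydration than in control. At the same limit 0 were higher in rehydration than in dehydration. The share of all transcripts at this limit was not counted, so nothing is read from these last 2 counts.

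Because members were chosen with a low control and a high dehydration level, all of these counts were favored by the choice itself. The same holds for the adjusted p-values of single members below, which are given as a description. Both comparisons also share the rehydration libraries. Both rehydration libraries lay above both control libraries for 161 members (background 26.9%) and below both dehydration libraries for 160 (background 22.7%), and both lay above both dehydration libraries for 0 members (background 43.0%). Called in all 3 comparisons were 13 members (7.14%, background 0.153%), whose level was thus higher in drying and came down after re-watering without reaching the control level. For 102 members (56.0%, background 7.39%) neither rehydration comparison was called, which leaves their position between the 2 levels unresolved with 2 libraries per condition. These counts depend on the processing. With a pseudocount of 0.1 the calls lower than dehydration drop to 7, beside 0.343% of all tested transcripts. With no filter on low values 14 members were called above control, beside 0.12%, and 0 below dehydration, beside 0.00251%. In that fit 131 members were below dehydration at an unadjusted p under 0.05 in limma with a fold over 2. Leaving out any 1 library leaves 1 condition with a single library. When the rule was applied again, fewer members were called, and fewer of all tested transcripts as well. Such fits therefore cannot tell a weak member from a fit with too few libraries, and no count is read from them. The calls thus rest on having 2 libraries per condition.

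**Figure D2:**
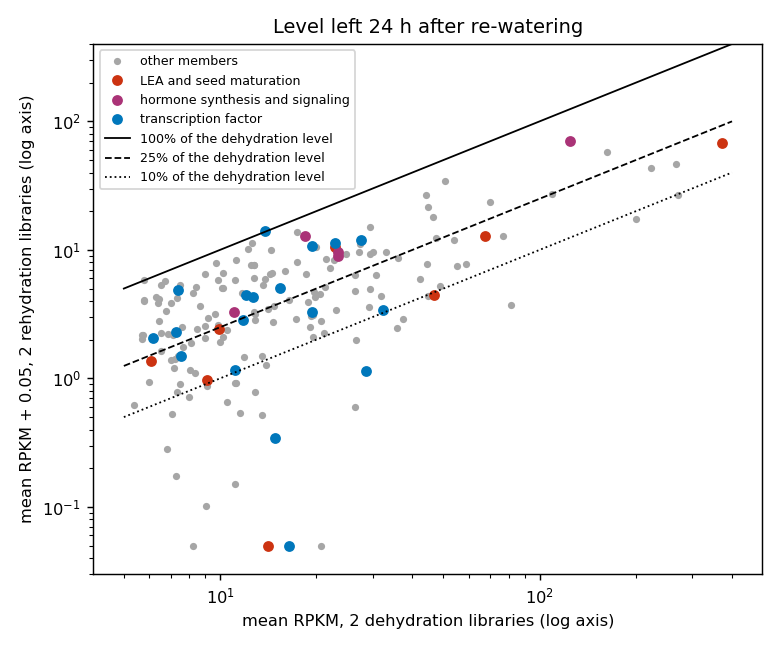
Mean RPKM in the 2 rehydration libraries (plus 0.05, log axis) against the mean in the 2 dehydration libraries (log axis), 1 point per member, with lines at 100%, 25% and 10% of the dehydration level. Points lie mostly between 10% and 100%, with a median of 24.5%, and the points along the bottom edge are the 4 members listed at 0 in both rehydration libraries.

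The annotations came from the words in the tables of the study, and they cover the members unevenly. On chromosomes 1 to 3, 67 of 69 members had an entry, against 28 of 113 on chromosomes 4 to 12, since the tables at hand are incomplete for the latter. In all 95 members were annotated, and 80 of them had a named function. Sorted by the words of the annotation, these were 8 LEA and seed maturation proteins, 5 of hormone synthesis and signaling, 18 transcription factors, 11 of signaling and protein turnover, 20 of metabolism and cell wall, 10 transposons and 8 others. Counts called in the groups and lists below stand beside 21.4% of all members called above control and 26.4% called below dehydration. Over all tested transcripts these shares were 0.776% and 1.01%. Differences between groups were not tested.

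LEA and seed maturation proteins held the highest level of all. The group 3 LEA transcript LOC_Os01g50910_1 had 0.479 and 0.174 RPKM in control, 394 and 350 RPKM in dehydration and 80.6 and 55.6 RPKM in rehydration. The 3 conditions did not overlap. Its level after re-watering was above control by 5.69 ± 0.24 on the log2(RPKM + 1) scale (SE, limma adjusted p = 0.0011) and had fallen by 2.45 ± 0.24 from dehydration (adjusted p = 0.0047). A second model of this locus, LOC_Os01g50910_2, was at 0 in both control libraries, at 14.0 and 14.2 RPKM in dehydration and again at 0 in both rehydration libraries (adjusted p = 0.0039 against dehydration). This second model made up 3.66% of the locus sum in drying.

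Late embryogenesis abundant protein 1 (LOC_Os03g20680_1) had 0.491 and 0.401 RPKM in control, 66.9 and 68.3 RPKM in dehydration and 13.2 and 12.5 RPKM in rehydration. It was called both above control (log2 difference 3.26, adjusted p = 0.0024) and below dehydration (log2 difference -2.31, adjusted p = 0.0043). LTPL102 (LOC_Os04g33920_1), of the family of protease inhibitors, seed storage and lipid transfer proteins, had 0.302 and 0 RPKM in control, 59.4 and 34.1 RPKM in dehydration and 5.97 and 2.81 RPKM in rehydration. For LTPL102 the fall after re-watering was called (log2 difference -3.16, adjusted p = 0.0071) and the difference from control was not (adjusted p = 0.042).

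The seed maturation protein PM41 (LOC_Os01g46600_1) showed how far replicates could differ. It was at 0 in control, at 38.5 and 7.14 RPKM in dehydration and at 15.1 and 5.99 RPKM in rehydration, so that rehydration replicate 1 lay above dehydration replicate 2. Neither rehydration comparison was called, and without dehydration replicate 1 the direction against dehydration turned (log2 difference 0.38). The group 1 LEA transcript LOC_Os06g21910_1 was at 0 in control, at 13 and 6.80 RPKM in dehydration and at 3.76 and 1.02 RPKM in rehydration. The remaining LEA and seed maturation members, a DUF1264 protein (LOC_Os01g52830_1) and a desiccation-related protein of the PCC13-62 type (LOC_Os04g33150_1), kept 10.1% and 21.6% of the dehydration level. Over the 8 members of the LEA and seed group the median share left was 18.7%. Of these 8, 2 were called above control (21.4% of all members) and 4 below dehydration (26.4% of all members). All 8 belong to loci that were under 0.5 RPKM in both control libraries as a whole.

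Hormone genes among the members were led by NCED3 (LOC_Os07g05940_1), an enzyme of ABA synthesis whose maize counterpart is Viviparous-14. It had 0.303 and 0.330 RPKM in control, 123 and 126 RPKM in dehydration and 59.8 and 80.4 RPKM in rehydration. More than 50% of the dehydration level was thus left after re-watering (56.5%), called above control (log2 difference 5.74 ± 0.20, adjusted p = 0.00078) and not called below dehydration (-0.83 ± 0.20, adjusted p = 0.034). A second NCED (LOC_Os03g44380_1) had 0.304 and 0.265 RPKM in control, 16.9 and 29.9 RPKM in dehydration and 6.49 and 12.6 RPKM in rehydration, with no rehydration comparison called (adjusted p = 0.017 and 0.074).

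A type 2C protein phosphatase (LOC_Os05g49730_1) had 0.217 and 0.118 RPKM in control, 32.7 and 14.2 RPKM in dehydration and 10.5 and 7.18 RPKM in rehydration. The jasmonic acid (JA) signaling gene ZIM18 (LOC_Os10g25230_1), whose ZIM domain marks the family of JA repressors, had 0.318 and 0 RPKM in control, 10.6 and 26.3 RPKM in dehydration and 5.77 and 19.8 RPKM in rehydration. In both conditions replicate 2 of ZIM18 was the higher library, and the ranges of dehydration and rehydration overlapped. The BES1/BZR1 homolog (LOC_Os02g13900_1), of a family that acts in brassinosteroid signaling, had 0.223 and 0.243 RPKM in control, 9.76 and 12.4 RPKM in dehydration and 2.74 and 3.76 RPKM in rehydration. Of the 5 hormone members 1 was called above control after re-watering, 0 were called below dehydration by limma, and the share left had a median of 40.7% (29.4% to 69.3%).

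The study's lists of hormone genes also held transcripts outside the rule. Of 37 tested transcripts in the list of ABA synthesis, signaling and deactivation genes, 1 was a member, beside 182 of all 26790 tested transcripts. In dehydration 16 of the 37 were called higher and 11 lower than in control (background 8.97% higher and 13.4% lower). In rehydration 4 of the 37 were called above control and 0 below it, beside 0.776% and 0.0709% of all tested transcripts. Against dehydration 5 were called above and 2 below, beside 4.32% and 1.01%. In the 14 tested JA transcripts 1 was a member, and 6 were called higher and 3 lower in dehydration. After re-watering 2 of the 14 were called above control and 0 below it, and against dehydration 1 was called above and 0 below. The background shares are the same as for the ABA list. The study chose these lists on the same samples, so their direction is not independent evidence. NCED2 (LOC_Os12g42280_1), also an enzyme of ABA synthesis, lay just outside the rule with 0.761 and 0.414 RPKM in control, 4.14 and 7.08 RPKM in dehydration and 1.01 and 2.57 RPKM in rehydration.

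Lists of genes that answer to added hormone in seedling shoots, taken by the study from an external microarray set, held some of the member loci. The list of ABA-up-regulated genes held 23 of 172 member loci (13.4%), beside 2.70% of all tested loci and 13.4% of the 1980 other loci with a transcript called higher in dehydration. The list of genes up-regulated by the auxin indole acetic acid (IAA) held 11 member loci (6.40%), beside 0.863% of tested loci and 3.08% of the other loci called higher. The ABA-down-regulated list held 1 member locus (0.581%), beside 2.54% of tested loci, and the IAA-down-regulated list also held 1 (0.581%), beside 0.366%. In 17 of the 23 ABA loci the listed transcript was the member itself, and these 17 kept a median of 37.3% of the dehydration level (10.6% to 56.5%), with 7 called above control and 4 below dehydration. The 11 IAA members kept a median of 24.4% (5.77% to 68.2%), with 1 and 2 called. On both lists were a U box protein (LOC_Os09g21120_1), a cytochrome P450 (LOC_Os12g39310_1) and a homeobox protein (LOC_Os07g48560_1).

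Transcription factors spread over 9 families in the 14 members that the study's table of transcription factors lists. There were 4 AP2-EREBP members, 2 NAC, 2 bHLH and 1 each of the BES1, C2H2, HB, Tify, WRKY and bZIP families. The 18 transcription factors sorted by annotation are not the same set. That sorting placed the BES1/BZR1 homolog and ZIM18 with the hormone genes. After re-watering the 18 ran from 0% to 101% of the dehydration level, with a median of 31.7%, 2 called above control and 4 below dehydration.

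At the low end stood a NAC transcript (LOC_Os05g10620_1), of the plant-specific family named for the no apical meristem gene. It was at 0 in control, at 19.2 and 13.6 RPKM in dehydration and again at 0 in both rehydration libraries (adjusted p = 0.0039). The locus did not go silent with this model, since the sum of its 3 models was 12.5 and 13.1 RPKM in rehydration. A helix-loop-helix transcript (LOC_Os06g10820_1) was at 0 in control, at 5.09 and 24.7 RPKM in dehydration and at 0 and 0.593 RPKM in rehydration. Its 2 dehydration libraries were far apart, and the fall was not called (adjusted p = 0.022).

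Both models of the bZIP-type factor HBP-1b, first described as binding wheat histone promoters, came down after re-watering. LOC_Os01g06560_1 had 0 and 0.106 RPKM in control, 22.7 and 41.9 RPKM in dehydration and 2.60 and 4.08 RPKM in rehydration (log2 difference from dehydration -2.90, adjusted p = 0.0067). LOC_Os01g06560_2 was at 0 in control, at 20.5 and 36.6 RPKM in dehydration and at 0.895 and 1.30 RPKM in rehydration (-3.77, adjusted p = 0.0045). A further bZIP transcript (LOC_Os01g64000_1) was at 0 in control, at 21.5 and 17.4 RPKM in dehydration and at 2.73 and 3.77 RPKM in rehydration (-2.27, adjusted p = 0.0063). In these 3 transcripts every rehydration value lay below every dehydration value, as in 160 of all 182 members.

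Other transcription factors kept more. The ethylene-responsive factor ERF110 (LOC_Os11g06770_2) had 0 and 0.148 RPKM in control, 25.7 and 29.7 RPKM in dehydration and 9.71 and 13.9 RPKM in rehydration (log2 difference from control 3.56, adjusted p = 0.0033). A second NAC locus (LOC_Os02g36880_1) was at 0 in control, at 25.3 and 20.5 RPKM in dehydration and at 14.2 and 8.43 RPKM in rehydration (adjusted p = 0.0049 against control). An AP2 domain transcript (LOC_Os02g42585_1) had 0.444 and 0.322 RPKM in control, 15.0 and 23.8 RPKM in dehydration and 6.16 and 15.1 RPKM in rehydration. ERF110 and the NAC transcript were the 2 of the 18 that were called above control. WRKY42 (LOC_Os02g26430_1) had 0.467 and 0.169 RPKM in control, 10.2 and 17.4 RPKM in dehydration and 8.64 and 19.1 RPKM in rehydration. WRKY42 thus stood at 101% of its dehydration mean, with replicate 2 higher in both conditions, and its difference from control missed the threshold (adjusted p = 0.015).

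**Figure D3:**
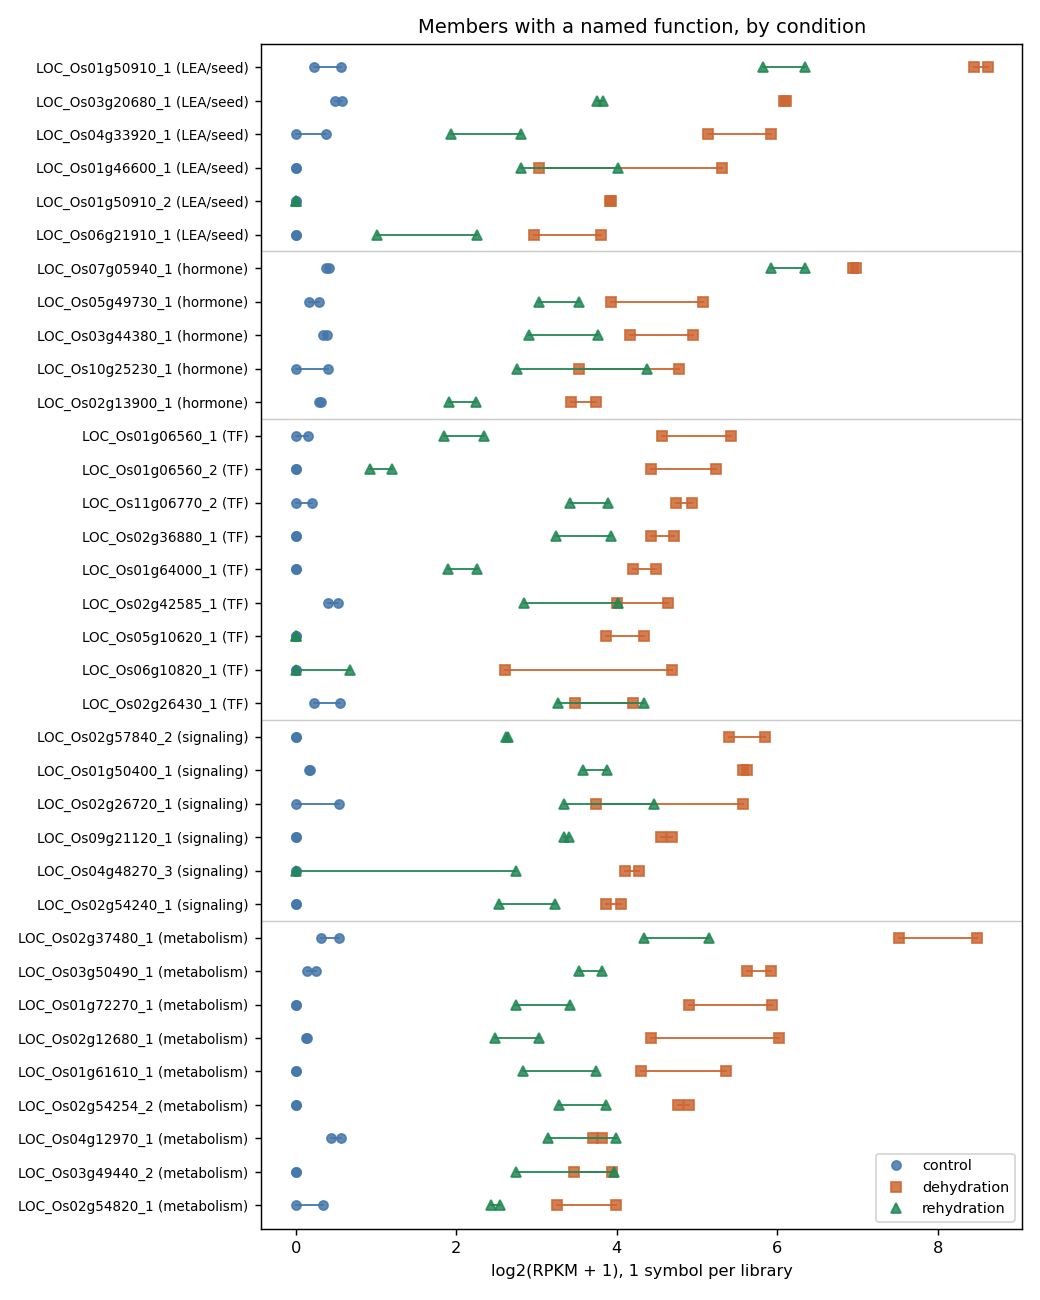
Level as log2(RPKM + 1) of the members picked for naming in the LEA and seed, hormone, transcription factor, signaling and metabolism groups. There is 1 symbol per library, a line between the 2 libraries of a condition and horizontal lines between groups. These members were picked by level in drying, share left or mention in the study, so they do not stand for all members. For most of them the rehydration symbols lie between control and dehydration, as for NCED3 at 59.8 and 80.4 RPKM, while the NAC transcript LOC_Os05g10620_1 and the second LEA model LOC_Os01g50910_2 are back at 0 and WRKY42 overlaps its dehydration range.

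Signaling and protein turnover members had the highest median share left of the named groups, 45.3% over 11 members (10.6% to 70.4%), though the spread within each group was wide and the groups were not tested against each other. A remorin (LOC_Os02g57840_2), of a family of plant plasma membrane proteins, was at 0 in control, at 41.0 and 56.6 RPKM in dehydration and at 5.16 and 5.23 RPKM in rehydration (log2 difference from dehydration -2.99, adjusted p = 0.0045). A MAP3K of the MEKK type (LOC_Os01g50400_1), which in other plants starts a kinase cascade, had 0.119 and 0.130 RPKM in control, 48.2 and 46.7 RPKM in dehydration and 10.9 and 13.7 RPKM in rehydration. The remorin and the MAP3K were called both above control (adjusted p = 0.0069 and 0.0027) and below dehydration (adjusted p = 0.0045 and 0.0056).

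Proteins that mark others for degradation were also present. The U box transcript LOC_Os09g21120_1 was at 0 in control, at 22.4 and 24.7 RPKM in dehydration and at 9.16 and 9.60 RPKM in rehydration (adjusted p = 0.0027 against control, 0.015 against dehydration). The F-box transcript OsFBX62 (LOC_Os02g54240_1) was at 0 in control, at 13.5 and 15.6 RPKM in dehydration and at 4.79 and 8.40 RPKM in rehydration (adjusted p = 0.0097 against control). A cyclin-like F-box transcript (LOC_Os04g48270_3) was at 0 in control, at 18.4 and 16.1 RPKM in dehydration and at 5.71 and 0 RPKM in rehydration. Of these, the U box and OsFBX62 transcripts were called above control. The inositol trisphosphate kinase transcript LOC_Os02g26720_1 had 0 and 0.457 RPKM in control, 46.4 and 12.3 RPKM in dehydration and 21.0 and 9.13 RPKM in rehydration, with overlapping dehydration and rehydration ranges.

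Metabolism and cell wall members were led by a glycine-rich cell wall structural protein (LOC_Os02g37480_1), of a family that strengthens walls. It had 0.447 and 0.243 RPKM in control, 359 and 182 RPKM in dehydration and 19.3 and 34.5 RPKM in rehydration. It was called above control (log2 difference 4.32 ± 0.40, adjusted p = 0.0062) and had fallen by 3.26 ± 0.40 from dehydration (adjusted p = 0.0064). A transcript with a glutamine synthetase catalytic domain (LOC_Os03g50490_1) had 0.190 and 0.103 RPKM in control, 59.7 and 48.1 RPKM in dehydration and 10.5 and 13.1 RPKM in rehydration, again called in both directions (adjusted p = 0.0027 and 0.0053).

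Enzymes that oxidize small molecules stood at similar levels. The cytochrome P450 LOC_Os01g72270_1 was at 0 in control, at 60.2 and 28.8 RPKM in dehydration and at 9.67 and 5.71 RPKM in rehydration. A second P450 (LOC_Os02g12680_1) had 0.0945 and 0.103 RPKM in control, 64.2 and 20.4 RPKM in dehydration and 7.15 and 4.60 RPKM in rehydration. A flavonol synthase/flavanone 3-hydroxylase transcript (LOC_Os01g61610_1) was at 0 in control, at 40.2 and 18.7 RPKM in dehydration and at 12.4 and 6.13 RPKM in rehydration. In all 3 the level in dehydration replicate 1 was more than 2-fold that in replicate 2, and no rehydration comparison was called. The UDP-glucosyl transferase LOC_Os04g12970_1, of a family that attaches sugars to hormones and secondary metabolites, had 0.353 and 0.480 RPKM in control, 13.1 and 12 RPKM in dehydration and 7.82 and 14.9 RPKM in rehydration. It kept 90.4% of its dehydration mean and was called above control (adjusted p = 0.0095). For saccharopine dehydrogenase, an enzyme of lysine metabolism, the model LOC_Os02g54254_2 was at 0 in control, at 26.0 and 28.8 RPKM in dehydration and at 8.70 and 13.6 RPKM in rehydration (adjusted p = 0.0038 against control). This model kept 40.6% of its dehydration mean and carried 4.37% of its locus in drying. Over the 20 members of the metabolism and cell wall group the median share left was 20.7% (5.68% to 90.4%), and 5 were called above control and 5 below dehydration.

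Trehalose-6-phosphate synthase, which makes the precursor of the sugar trehalose, and a phosphatase were measured in the study by quantitative PCR as well. The primers are shown because they are the only sequences at hand for members, 5′ to 3′ in lower case.
LOC_Os02g54820 forward: caagtactacctcgacgaca
LOC_Os02g54820 reverse: tcctgtaacttctgcagcta
LOC_Os03g49440_2 forward: gatcgattatcgtcgcagct
LOC_Os03g49440_2 reverse: ttcatggtctcgaagcacac

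The member of the trehalose-6-phosphate synthase locus, LOC_Os02g54820_1, had 0.266 and 0 RPKM in control, 14.8 and 8.53 RPKM in dehydration and 4.83 and 4.38 RPKM in rehydration. The sum over all 3 models of this locus was 20.5 and 16.6 RPKM in control, 201 and 191 RPKM in dehydration and 57.1 and 64.0 RPKM in rehydration, so the member carried 5.96% of the locus in drying. The phosphatase model LOC_Os03g49440_2 was at 0 in control, at 14.4 and 10.1 RPKM in dehydration and at 14.6 and 5.70 RPKM in rehydration. Its locus stood at 38.2 and 21.5 RPKM in control, 500 and 356 RPKM in dehydration and 139 and 133 RPKM in rehydration. For both loci the near-zero start was thus a property of 1 model and not of the gene. The primers of the first locus name no model and those of the second name the member.

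This distinction between a model and its locus held for a good part of the members. The locus had a single model for 115 members and several for 67. Summed over all models, the locus was itself under 0.5 RPKM in both control libraries for 128 members (125 loci) and at 0.5 RPKM or more in a control library for 54 (47 loci). In 25 of these 54 the locus stood at 5 RPKM or more in both control libraries, and the member model made up a median of 9.72% of the locus sum in dehydration (0.064% to 100%). Of those 25 loci, 22 were higher in both dehydration than in both control libraries as a sum, and 2 were lower. How reads that fit several models were assigned is not given in the sources used here, so the values of such a model are less certain than those of its locus. The median share left after re-watering was 25.1% for members of silent loci and 23.4% for the others.

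**Figure D4:**
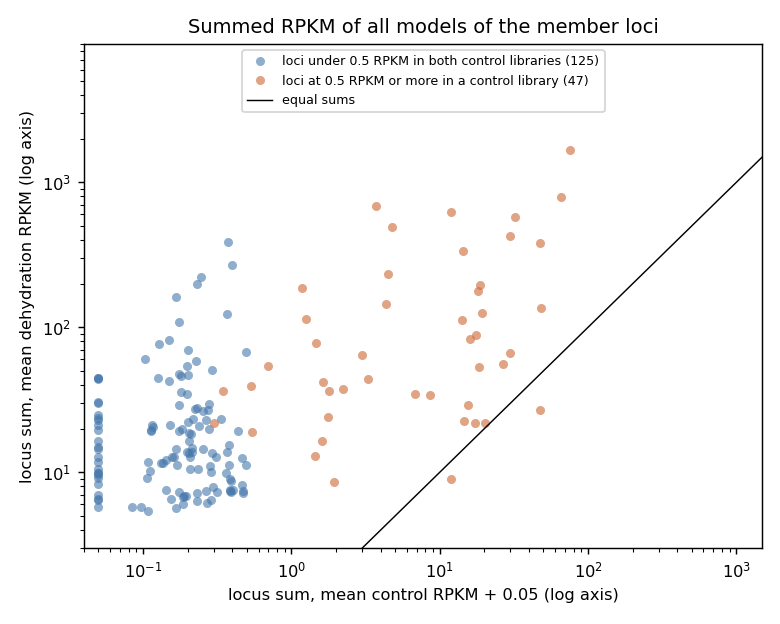
Summed RPKM of all models of each member locus, as the mean of the 2 dehydration libraries (log axis) against the mean of the 2 control libraries plus 0.05 (log axis), 1 point per locus. The 125 loci that were under 0.5 RPKM in both control libraries lie at the left, and the 47 others reach far higher control sums, most of them above the line of equal sums.

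Transposons gave 10 members, all of them annotated as transposon or retrotransposon proteins. Both rehydration libraries lay above both control libraries in all 10, beside 161 of all 182 members (88.5%) and 26.9% of all tested transcripts. The share left had a median of 37.4% (15.8% to 78.2%). A Pong-type transposon protein (LOC_Os02g33470_1) had 0.125 and 0 RPKM in control, 21.5 and 17.5 RPKM in dehydration and 3.72 and 2.46 RPKM in rehydration, and was the 1 transposon member called below dehydration (log2 difference -2.34, adjusted p = 0.0065). The retrotransposon model LOC_Os01g12810_5 was at 0 in control, at 19.2 and 15.7 RPKM in dehydration and at 14.8 and 12.5 RPKM in rehydration, and was the 1 called above control (adjusted p = 0.0027). Its locus went the other way, with a sum over 5 models of 50.4 and 44.1 RPKM in control, 29.1 and 24.9 RPKM in dehydration and 39.6 and 53.6 RPKM in rehydration. The Ty3-gypsy models LOC_Os02g40330_1 and LOC_Os02g40330_2 kept 42.2% and 45.7%, and LOC_Os03g36279_1 and LOC_Os01g28970_2, of the same class, kept 59.3% and 32.6%. Repeated sequences share reads among copies, so these values are uncertain as to the copy.

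Members with other named functions kept 9.94% to 36.9% of the dehydration level. The transcript named RPGR (LOC_Os03g18490_1) had 0.165 and 0.180 RPKM in control, 30.2 and 24.1 RPKM in dehydration and 10.8 and 8.44 RPKM in rehydration, and was called above control (log2 difference 3.17, adjusted p = 0.0039). The AAA-type ATPase LOC_Os01g12660_1 had 0.110 and 0.417 RPKM in control, 6.85 and 7.77 RPKM in dehydration and 0.818 and 0.636 RPKM in rehydration, and had fallen by 2.27 from dehydration on the log2(RPKM + 1) scale (adjusted p = 0.0069). A TspO/MBR-related membrane protein (LOC_Os05g05930_1), a histone deacetylase model (LOC_Os02g12380_2), an RNA recognition motif protein (LOC_Os02g48340_1) and the nucleoporin LOC_Os03g55660_1 kept 22.6% to 28%, with no rehydration comparison called.

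**Figure D5:**
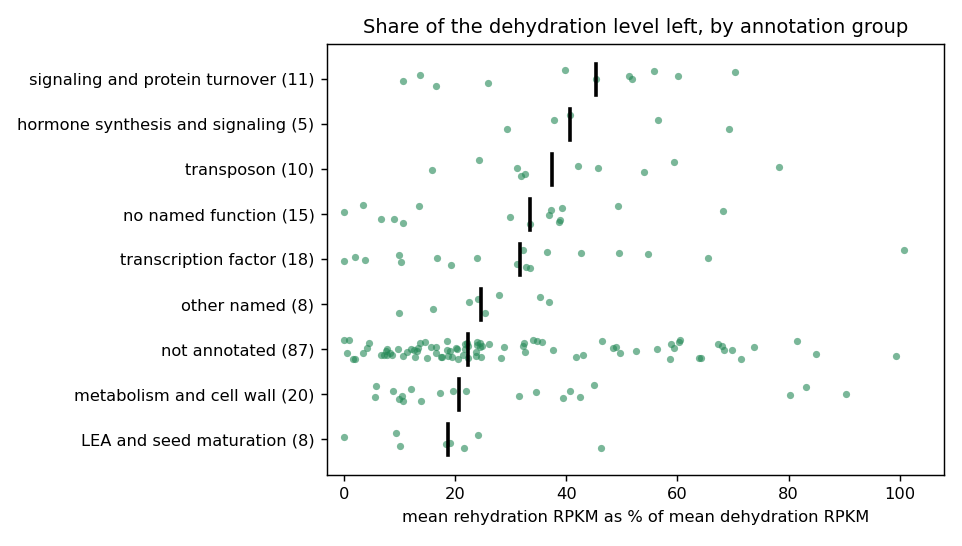
Mean rehydration RPKM as a percentage of mean dehydration RPKM, 1 point per member, by annotation group with the number of members in parentheses and a black bar at the median. Medians run from 18.7% for LEA and seed maturation members to 45.3% for signaling and protein turnover members, and the spread of single members within a group is wider than the distance between these medians.

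Some of the highest members had no annotation at hand and are given by their identifier. LOC_Os07g34520_2 was at 0 in control, at 369 and 165 RPKM in dehydration and at 61.1 and 32.0 RPKM in rehydration. LOC_Os12g05210_1 had 0.395 and 0 RPKM in control, 233 and 214 RPKM in dehydration and 57.3 and 29.3 RPKM in rehydration. LOC_Os05g31670_1 had 0 and 0.365 RPKM in control, 195 and 204 RPKM in dehydration and 15.7 and 18.9 RPKM in rehydration. The last of these was called above control (adjusted p = 0.0024) and below dehydration (log2 difference -3.46, adjusted p = 0.0039), as was LOC_Os12g05210_1 (adjusted p = 0.0027 and 0.0085). LOC_Os11g07911_1 had 0.232 and 0 RPKM in control, 224 and 101 RPKM in dehydration and 78.7 and 36.9 RPKM in rehydration. LOC_Os05g28210_1 had 0.199 and 0 RPKM in control, 60.0 and 103 RPKM in dehydration and 2.76 and 4.62 RPKM in rehydration. Only 4.54% of the dehydration level was left in the latter, a fall that was called (-4.11, adjusted p = 0.0045). LOC_Os05g03130_1 and LOC_Os08g34390_1 kept 24.9% and 16.7%. Over all 87 members without annotation the median share left was 22.3%, with 18 called above control and 28 below dehydration. A further 15 members had an entry that names no function, among them LOC_Os03g61160_4, which kept 3.48%.

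Several members were neighbors in the order of loci along the chromosomes. There were 9 runs of adjacent member loci with 19 loci in all, and the loci in the longest run, LOC_Os11g47520, LOC_Os11g47530 and LOC_Os11g47550, were chosen for naming after their values were seen. Their members had 5.65 and 8.05, 32.9 and 20.5, and 55.0 and 34.6 RPKM in dehydration, in that order, and kept 3.41%, 7.24% and 9.69%. All 3 were called below dehydration after re-watering (adjusted p = 0.0056, 0.0047 and 0.005). Among the tested loci directly next to a member locus that were not members themselves, 38 of 178 (21.3%) were called higher in dehydration, beside 9.62% of all 20577 tested loci that were not members. This was not tested, and neighboring models can share reads where they overlap.

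Replicates of one condition differed in a direction that many members shared. In 116 of 182 members (63.7%) dehydration replicate 1 was higher than replicate 2, beside 39.7% of the 18128 transcripts with at least 1 RPKM in all dehydration and rehydration libraries. By more than 2-fold, 34 members were higher in replicate 1 and 11 in replicate 2. In rehydration 94 members (51.6%) were higher in replicate 1, beside 50.2%. Across the members, log2(RPKM + 1) of the 2 dehydration libraries correlated with a Pearson r of 0.82 and that of the 2 rehydration libraries with 0.77, over 182 transcripts that share libraries and are not independent replicates.

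The rule has counterparts among the other pairs of conditions. From under 0.5 RPKM in both libraries to 5 RPKM or more in both, 64 transcripts went from control to rehydration and 67 from dehydration to rehydration. In the direction of loss, 170 transcripts were at 5 RPKM or more in control and under 0.5 RPKM in dehydration, 13 were so between dehydration and rehydration, and 10 between control and rehydration. The number switched on by drying, 182, was thus near the 170 that drying took below the same limit.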

How the data were processed

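The authors prepared stranded mRNA libraries from seedling shoots, mapped the reads to the rice genome and computed RPKM per transcript model in CLC Genomics Workbench, and deposited 1 RPKM value per library for each model. These RPKM values are normalized by the authors for transcript length and mapped reads. Here log2(RPKM + 1) was fitted in limma 3.58.1 (R 4.3.3) with 3 groups and a trend in place of the authors' count test, since no counts were at hand. Transcripts with at least 1 RPKM in at least 2 of 6 libraries entered (26790), and p-values were adjusted by Benjamini-Hochberg over all of them, 2-sided. Other steps used Python 3.11.15, numpy 2.4.6, pandas 2.3.3 and matplotlib 3.10.9. Whole read numbers were sought with multipliers up to 2000 and a tolerance of 1e-06 and were found for all 182 members. They are the smallest that fit, so true counts may be a multiple of them.

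Members and lists were chosen with earlier results of these data known. Named members are the 10 highest in dehydration, up to 6 with a named function per annotation group, the 5 annotated members that kept most and the 5 that kept least after re-watering among those of at least 10 RPKM, those next to the limits of the rule, and those the study names. Nothing states that the pools came from separate batches of plants, so p-values measure the spread between these libraries. Of 39387 genes in the reference gene table, 0 matched a locus identifier, so promoters and proteins were not analysed here. The lists of JA-responsive genes and the tables of annotation at hand were incomplete, and the former were not counted. Alternatives were other limits, median-ratio scaling, quantile normalization, a pseudocount of 0.1, no filter, sums per locus, a replicate block and leaving out each library.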

Additional observations from a re-analysis of the deposited data

How the results depend on the processing

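With control under 0.25 and dehydration of at least 10 RPKM there were 61 members. Of these, 25 were called above control and 27 below dehydration, beside 0.776% and 1.01% of all tested transcripts. In both rehydration libraries 27 were at 5 RPKM or more and 3 under 0.5 RPKM. With control under 1 and dehydration of at least 2.5 RPKM there were 516 members, 77 of them called below dehydration, beside 1.01% of all tested transcripts. In both rehydration libraries 101 were at 5 RPKM or more and 19 under 0.5 RPKM, and the median share left was 32.6%. Median-ratio scaling gave a median share of 19.8%. Sums per locus gave 61 loci called above control, beside 2.4% of all tested loci, and 2 loci under 0.5 RPKM in rehydration. A pseudocount of 0.1 gave 7 members called below dehydration, beside 0.343% of all tested transcripts. No filter gave 14 above control, beside 0.12%, and 0 below dehydration, beside 0.00251%. Without the filter 131 members were below dehydration at an unadjusted p under 0.05 in limma with a fold over 2. Quantile normalization gave 42 members above control and 66 below dehydration, beside 1.07% and 1.43% of all tested transcripts. The fit with a replicate block, whose numbers are not stated to pair libraries and whose deviations correlated by 0.06, 0.13 and 0.20, gave 35 members above control and 46 below dehydration. Without each library in turn the number of members ran from 182 to 335, those at 5 RPKM or more from 56 to 132, those under 0.5 RPKM from 8 to 18 and the median share from 21.5% to 32.8%. Among the members chosen again, the calls above control then ran from 0 to 22 and those below dehydration from 0 to 19. Each of these fits left 1 condition with a single library, so nothing is read from these calls. A lone library is assumed to vary like the others.

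Against dehydration, 6 named members turned direction when 1 library was left out, none of them called. Their log2 differences ran from -1.67 to 0.16 for LOC_Os02g26720_1, from -1.90 to 0.38 for PM41 (LOC_Os01g46600_1), from -1.39 to 0.22 for ZIM18 (LOC_Os10g25230_1), from -0.57 to 0.49 for WRKY42 (LOC_Os02g26430_1), from -0.62 to 0.23 for LOC_Os04g12970_1 and from -0.96 to 0.26 for LOC_Os03g49440_2. The causes were not tested.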
